A study of Mus musculus with 2 samples.

Results

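Cluster 12 of the E13.5 mandibular prominence was a group of 265 mesenchymal cells, chosen by the cluster number that the authors' deposited cell table gives each cell. It made up 4.19% of the 6318 cells of the E13.5 library (3.71 to 4.72%) and 6.91% of the 3833 cells of 10 mesenchymal clusters (6.13 to 7.76%), out of 13417 cells in the whole series. The authors' lineage name for it was mesenchyme, the same name as for clusters 0, 2, 3, 4, 6, 10, 11 and 14, whereas cluster 5 was named osteogenic progenitors. Those 9 clusters, with 3568 cells, were the comparison group. A further cluster named mesenchyme, cluster 21 with 72 cells, lay outside it and had a median mitochondrial share of 14.5%.

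The tissue was mandibular prominence of wild-type CD1 mouse embryos, and each stage (E13.5 and E11.5) was 1 droplet-based 10x library. Both were digested with a cold-active protease, at 5 mg/ml for E13.5 and 3 mg/ml for E11.5, and 71 cell barcodes occurred in both libraries. How many embryos each library pooled, their litters and their sexes were not given in the sources used here. With 1 library per stage there is no replicate error and no test, and every interval is a 95% interval of the counting error alone. Clusters rest on the expression of the same cells that are compared here, so differences between them are descriptions.

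The mandibular prominence of the first pharyngeal arch gives rise to the lower jaw, its teeth and the front of the tongue. Its mesenchyme comes largely from the neural crest and is divided by position into oral and aboral, proximal and distal fields, each marked by its own set of homeobox, T-box and forkhead transcription factors. Cells of these fields later become bone, cartilage, tendon, tooth mesenchyme or loose connective tissue.

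Cluster 12 held 1744506 UMIs, the counts of unique transcripts, at a median of 6419 per cell, against 32417910 UMIs and a median of 8544 per cell in the other 9 clusters. Its median mitochondrial share was 2.84%, against 3.03%.

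The first comparison asked which genes set cluster 12 apart from the other mesenchyme. A gene was called higher or lower when its summed level differed by at least 1.5-fold and the interval of the ratio excluded 1, which is a rule of size. Of 13414 genes with at least 20 UMIs, 977 (7.28%) were higher in cluster 12 and 1118 (8.33%) were lower. The counts of every gene list below are to be read beside these shares. Among G1 cells alone 770 (6.23%) were higher and 762 (6.17%) lower, of 12353 genes.

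The label was checked against cell type markers. The general mesenchyme markers summed to 4537 CPM (counts scaled to a sum of 1000000) in cluster 12, against 1683 to 8454 CPM in the other 9 clusters, and 0 of the 10 markers were lower. Pericyte markers summed to 16.1 CPM, against 17.4 to 62.2 CPM, and Rgs5, Kcnj8, Abcc9 and Vtn were at 0 in cluster 12. Macrophage markers summed to 11.5 CPM, against 7.58 to 12.6 CPM, with C1qa, Csf1r and Aif1 at 0. Epithelial markers stood apart: they summed to 276 CPM in cluster 12, against 118 to 183 CPM in the other 9 clusters, and 3 of 12 (Krt5, Krt18 and Perp) were higher. Krt5, a keratin of basal epithelium, was at 69.4 CPM in cluster 12, against 16.7 CPM in the other 9 clusters together. Krt14, its usual partner, was at 68.2 CPM against 52.7 CPM, and the epithelial adhesion molecule Epcam at 8.60 CPM against 6.45 CPM (all 3 were chosen after their values were seen). After each cell was thinned to 2000 UMIs, Krt5 was found in 11.4% of cluster 12 cells (7.83 to 15.9%) and 3.20% of the other mesenchymal cells (2.64 to 3.83%), and in 2.91% of erythroid cells, which should lack it. The part of these epithelial transcripts in the results was not tested, and without the cells that held at least 3 epithelial UMIs 880 genes were higher and 1012 lower.

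The genes with the largest ratios included secreted proteins, receptors and transcription factors. Smoc2, a secreted calcium-binding matrix protein, was at 265 CPM in cluster 12, and its lowest, median and highest levels in the other 9 clusters were 7.63, 12.3 and 60.9 CPM. It was 13.2-fold higher than in the other cells together (11.7 to 14.9). Gfra2, the co-receptor for the neurotrophic factor neurturin, was at 182 CPM, against 1.70, 19.7 and 91.1 CPM (lowest, median and highest), an 8.30-fold ratio (7.24 to 9.48). Lrrn1, a leucine-rich repeat membrane protein, was at 159 CPM, against 4.09, 11.8 and 54.1 CPM. Ntrk2, the receptor for brain-derived neurotrophic factor, was at 132 CPM, against 1.26, 16.6 and 75.1 CPM. For all 4 genes the highest other level was that of cluster 14, and cluster 12 lay above it. Cxcl14, a chemokine also made by epithelium, was at 1444 CPM, against 20.1, 187 and 656 CPM, and its highest level of all 22 clusters was 3415 CPM in the surface ectoderm of cluster 7. Anxa1, a phospholipid-binding annexin, was at 226 CPM, against 8.49, 24.8 and 154 CPM, and was also higher in an epithelial cluster (1038 CPM in cluster 16). Of the others named by rank, the kinase gene Sgk1 was 5.27-fold higher, the glutathione transferase gene Mgst1 5.09-fold, the LIM-domain gene Lmcd1 4.96-fold and the ubiquitin ligase gene Mylip 4.51-fold. All 14 genes of this ranking lay above every one of the 9 other mesenchymal clusters, as did 15.3% of all measured genes, and 14 of 14 were also higher among G1 cells. Of the 14, 10 were highest of all 22 clusters in cluster 12. A gene highest of all 22 also lies above the other 9, so at most 15.3% of all measured genes share this trait. The ranking itself favours such genes.

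**Figure D1:**
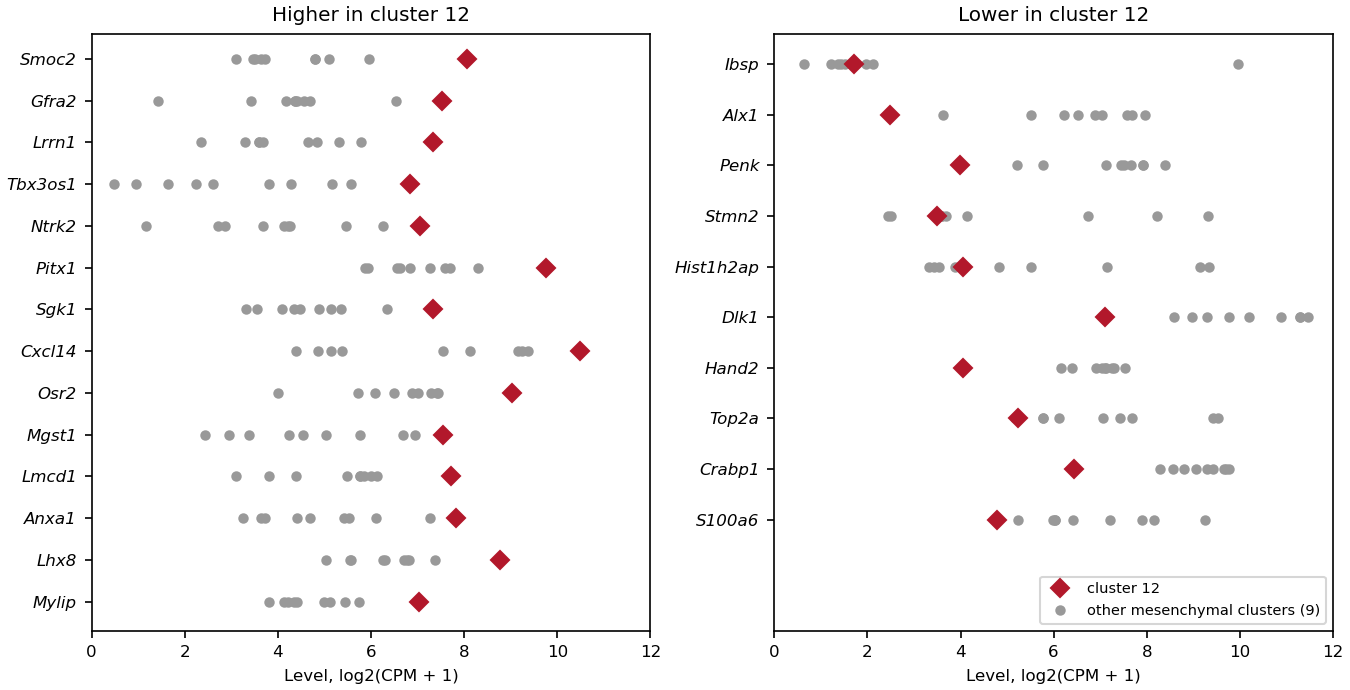
Level of the 14 genes ranked highest and the 10 ranked lowest in cluster 12 (log2 of CPM + 1, horizontal axis). Red diamonds are cluster 12 and grey points are the other 9 mesenchymal clusters, each from summed UMIs of 1 library with no error bar. The red diamond is to the right of every grey point for all 14 higher genes, and to the left of every grey point for 6 of the 10 lower genes.

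Some genes with larger ratios but under 100 CPM were chosen after their values were seen. Prdm6, a transcriptional regulator, was at 82.0 CPM in cluster 12 and at most 13.2 CPM in any other mesenchymal cluster, a 24.6-fold ratio (19 to 31.9). Phactr1, a regulator of actin and protein phosphatase 1, was at 76.2 CPM against at most 7.39 CPM, 24.7-fold (18.9 to 32.4), though its highest level was 155 CPM in the neurogenic cluster 18. Kera, which encodes the proteoglycan keratocan, was at 70.5 CPM against at most 17.5 CPM, 12.1-fold (9.56 to 15.3), and was a list example of the tendon genes.

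Transcription factors of oral and dental mesenchyme were among the genes with the largest ratios. Of 25 measured genes of oral and dental patterning, 11 were higher and 11 lower in cluster 12, with a median log2 ratio of 0.46 against -0.02 over all genes. Pitx1, a homeobox factor of the first arch and the hindlimb, was at 860 CPM in cluster 12, against 57.5, 114 and 313 CPM (lowest, median and highest of the other 9 clusters), 5.73-fold higher (5.41 to 6.07). Osr2, a zinc finger factor needed for growth of the palate and for the pattern of the tooth row, was at 518 CPM, against 15.1, 116 and 172 CPM, 5.17-fold higher (4.80 to 5.57). Lhx8, a LIM homeobox factor of oral mesenchyme, was at 434 CPM, against 31.9, 77.2 and 165 CPM, 4.80-fold higher (4.43 to 5.20). Its relative Lhx6 was at 45.9 CPM, against 3.42, 10.9 and 24.2 CPM. In each of these 4 factors cluster 12 lay above all 9 other clusters.

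The T-box factors followed. Tbx3 was at 115 CPM in cluster 12, against 4.09, 16.2 and 58.8 CPM (lowest, median and highest of the other 9). Tbx15 was at 51.0 CPM, against 0.400, 9.84 and 29.0 CPM. Tbx18 was at 78.5 CPM, against 0.629, 5.06 and 73.1 CPM, so that cluster 2 came within reach of cluster 12. Tbx3os1, a transcript that runs antisense to Tbx3 and overlaps its start, was at 114 CPM against at most 46.5 CPM, and how the counting treated strand is not given in the sources used here, so reads of the overlap may belong to either. Tbx2 was at 36.1 CPM against at most 23.0 CPM, and Shox2, a homeobox factor of the palate, at 114 CPM, below its 124 CPM in cluster 14 (both chosen after their values were seen). Dlx1, a distal-less homeobox factor, was at 39.6 CPM, against 0.447, 5.06 and 13.1 CPM, and also overlaps an antisense gene. All 8 factors named by rank were higher among G1 cells too, and 7 of the 8 were at their highest of all 22 clusters in cluster 12. Ranking by ratio favours both traits, and at most 15.3% of all measured genes could be highest in cluster 12. Over the wider list of 121 measured transcription factors of jaw mesenchyme, 27 were higher and 51 lower.

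**Figure D2:**
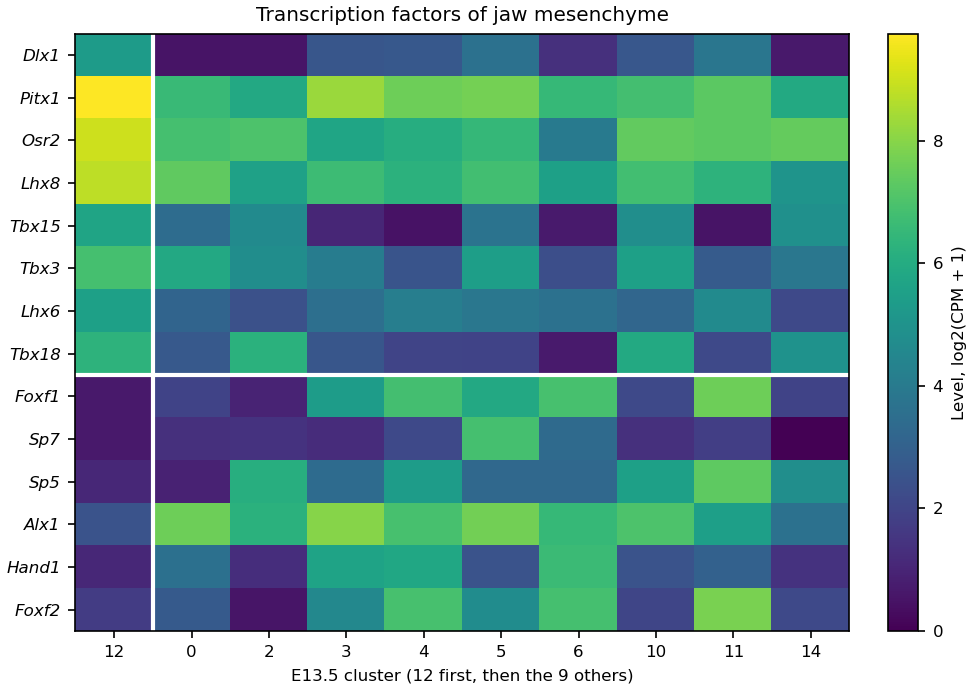
Level (log2 of CPM + 1, colour) of the 8 transcription factors ranked highest and the 6 ranked lowest in cluster 12, by E13.5 mesenchymal cluster, with cluster 12 in the first column. The upper 8 rows are brightest in the first column, with Tbx18 nearly as high in cluster 2 (73.1 CPM), and the lower 6 rows are dark there.

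Joint detection of Pitx1, Osr2 and Lhx8 was counted in single cells. The 3 genes were taken from those ranked higher in cluster 12, so a high joint share there follows from the choice. Each cell was first thinned to 2000 UMIs, which left out 2 cluster 12 cells that were shallower. All 3 transcripts were then detected in 66 of 263 cluster 12 cells (25.1%, 20 to 30.8%) and in 28 of 3533 cells of the other 9 clusters (0.793%, 0.527 to 1.14%). The highest share in another cluster was 2.05% in cluster 10. Cluster 12 held 70.2% of the mesenchymal cells with all 3 (59.9 to 79.2%). Without thinning the shares were 67.2% in cluster 12 and 9.64% in the others, and cluster 12 then held 178 of the 522 mesenchymal cells with all 3 (34.1%, 30.0 to 38.3%), so that most such cells lay in the other clusters. Erythroid cells, used as the measure of free RNA, had 0 of 206 cells after thinning, which allows up to 1.46%. This is a weak measure. Erythroid markers, haemoglobin genes among them, summed to 883524 CPM in these cells, so thinning left few other UMIs. Pitx1 by itself was detected in 82.1% of thinned cluster 12 cells, against 19.6% of the other cells and 0 of 206 erythroid cells. Without thinning these shares were 96.2%, 42.9% and 7.25%. Osr2 was detected in 52.9% of thinned cluster 12 cells and Lhx8 in 54.8%. Within cluster 12, Osr2 was found in 54.6% of cells with Pitx1 (47.7 to 61.4%) and 44.7% of cells without it (30.2 to 59.9%). These intervals overlap. Whether the 3 occurred together more often than their single shares give was not tested.

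The promoter windows of the higher factors show what lies at the starts of genes that were high together. RefSeq promoters (GRCm38.p6, 250 bases before to 50 after the start) were matched for 13 of 19 genes ranked higher overall or among the factors. They are shown for the 4 homeobox and T-box factors of the ranking that had an entry, 5′ to 3′ on the gene's strand, with GC boxes (GGGCGG on either strand) in capitals. They lie at chr3:154330511-154330810 (minus strand, Lhx8), chr9:87731211-87731510 (minus strand, Tbx18), chr2:36105359-36105658 (minus strand, Lhx6) and chr2:71529195-71529494 (plus strand, Dlx1).
Lhx8: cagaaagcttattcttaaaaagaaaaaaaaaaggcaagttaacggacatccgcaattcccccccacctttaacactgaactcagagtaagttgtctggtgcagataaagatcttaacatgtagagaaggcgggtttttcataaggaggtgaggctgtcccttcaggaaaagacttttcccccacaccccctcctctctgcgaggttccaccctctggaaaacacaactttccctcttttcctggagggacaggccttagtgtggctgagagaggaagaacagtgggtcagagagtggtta
Tbx18: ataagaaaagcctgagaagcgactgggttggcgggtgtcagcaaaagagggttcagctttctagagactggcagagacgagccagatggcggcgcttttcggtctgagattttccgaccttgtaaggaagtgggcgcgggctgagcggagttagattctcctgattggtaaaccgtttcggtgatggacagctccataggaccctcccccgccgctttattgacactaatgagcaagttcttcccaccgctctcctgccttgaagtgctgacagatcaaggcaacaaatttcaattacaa
Lhx6: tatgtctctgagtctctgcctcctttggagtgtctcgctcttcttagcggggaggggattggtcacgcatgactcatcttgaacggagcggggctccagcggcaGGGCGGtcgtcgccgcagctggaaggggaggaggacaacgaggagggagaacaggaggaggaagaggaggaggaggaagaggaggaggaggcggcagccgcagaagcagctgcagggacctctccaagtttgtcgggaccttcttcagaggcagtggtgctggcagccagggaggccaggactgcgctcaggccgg
Dlx1: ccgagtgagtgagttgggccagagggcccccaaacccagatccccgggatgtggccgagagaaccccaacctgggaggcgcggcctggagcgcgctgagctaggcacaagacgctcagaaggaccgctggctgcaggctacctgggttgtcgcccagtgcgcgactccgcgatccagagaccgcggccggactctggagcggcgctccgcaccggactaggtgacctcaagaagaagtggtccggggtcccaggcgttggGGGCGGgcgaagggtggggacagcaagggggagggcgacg
The GC box was present in 8 of the 13 windows (61.5%), against 35.9% of 27025 promoters. The homeodomain letters TAATCC, bound by PITX factors, were in 0 of the 13 windows and in 7.16% of all promoters. TAATTA, a core of LIM homeodomain sites, was in 0 of 13 and 5.31%, and the T-box letters AGGTGTGA were in 0 of 13 and 1.27%. The TATAAA letters were in 2 of 13 (15.4%), those of Mylip and Anxa1, against 14.2% of all. Both strands were searched for every motif. A match is a description of the letters in the window.

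Secreted signals and their inhibitors were found among both the higher and the lower genes. Over all measured genes 7.28% were higher and 8.33% lower. The higher counts of the TGF-beta, BMP, FGF, and PDGF and IGF lists were near that share, and each of these lists had more lower genes. In the WNT pathway, 10 of 35 measured genes were higher and 7 lower (median log2 ratio -0.03, or 0.04 with genes at 0 set to 3 counts). Sfrp2, a secreted WNT inhibitor, was at 920 CPM in cluster 12, against 35.6, 158 and 801 CPM (lowest, median and highest of the other 9), and Rspo2, a WNT enhancer that acts through LGR receptors, at 32.7 CPM, against 0.424, 3.13 and 17 CPM. Among the lower ones, the WNT target Sp5 was at 1.15 CPM against 36.2 CPM in the other cells together. Cluster 0 was just as low in Sp5, at 0.895 CPM, and cluster 11 was highest, at 162 CPM. The inhibitor Dkk1 was at 2.87 CPM against 28.3 CPM in the other cells together, and 34.9 CPM in cluster 0. Of 17 measured TGF-beta and latency genes 2 were higher and 3 lower, and the ligand Tgfb2 was at 262 CPM, against 32.0, 47.9 and 131 CPM. Of 26 measured BMP pathway genes 3 were higher and 9 lower, with the BMP and activin inhibitor Fst at 2.29 CPM against 46.6 CPM. Of 19 FGF pathway genes 1 was higher, the ligand Fgf18 (24.1 against 7.53 CPM), and 5 were lower. Among the lower ones was the FGF target Etv4 (5.16 against 29.8 CPM), which was also low in cluster 0 (3.35 CPM) and cluster 14 (0.569 CPM). Of 16 chemokines and secreted factors 5 were higher and 3 lower, and of 16 PDGF and IGF genes 2 were higher and 5 lower.

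Neural guidance and adhesion genes differed in both directions. Of 29 axon guidance and neurotrophic genes 8 were higher and 6 lower. Ntng1, a membrane-anchored netrin, was at 74.5 CPM in cluster 12, against 1.27, 5.53 and 32.4 CPM (lowest, median and highest of the other 9), and the receptor Epha4 at 187 CPM, against 30.3, 78.9 and 100 CPM. The guidance receptor Nrp2 was at 14.3 CPM against 60.4 CPM in the other cells together. Cluster 0 was at 10.7 CPM of Nrp2, and no difference from it was called. Of 19 cadherins and adhesion genes 4 were higher and 7 lower. Cdh13 was at 39.0 CPM against at most 17.6 CPM, while Cdh4 had 0 UMIs in cluster 12 against 12 CPM in the others. Cluster 0 was also low in Cdh4, at 0.895 CPM.

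Matrix genes were mixed. Of 29 measured genes of fibrillar and connective matrix 6 were higher (Col14a1, Fbln2, Mfap2, Dcn, Lum and Bgn) and 5 lower (Col6a3, Ogn, Aspn, Tnc and Fn1), with a median log2 ratio of 0.02. Col14a1, a collagen that associates with fibrils, was at 35.5 CPM in cluster 12, against 1.70, 6.02 and 18.2 CPM (lowest, median and highest of the other 9). The small proteoglycan Dcn was at 623 CPM, against 12.3, 161 and 1093 CPM, and so lay below cluster 14. Ogn, another small proteoglycan, was at 18.3 CPM against 74.0 CPM in the others together, and the matrix glycoprotein Tnc at 15.5 CPM against 70.1 CPM. Col1a1, a chain of type I collagen chosen after its values were seen, was at 836 CPM against 641 CPM, a ratio of 1.30 that did not reach the size rule.

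Genes of the skeletal and tendon lineages were lower in cluster 12. Of 14 measured osteogenic genes 1 was higher and 9 lower (median log2 ratio -3.33, or -1.43 with genes at 0 set to 3 counts). Ibsp, a bone matrix sialoprotein, was at 2.29 CPM, against 0.569, 1.85 and 997 CPM (lowest, median and highest of the other 9), and the osteoblast factor Sp7 at 0.573 CPM, against 0, 1.68 and 115 CPM. The highest level of both was that of cluster 5, and cluster 12 lay within the range of the remaining clusters. Of 17 measured chondrogenic genes 0 were higher and 9 lower (median -4.76, or -1.44 with genes at 0 set to 3 counts), and 8 were at 0 in cluster 12. Col2a1, the collagen of cartilage, was at 17.2 CPM against 47.5 CPM in the others, while Sox9, its regulator, was at 22.4 CPM against 22.5 CPM. With cluster 5 left out of the other cells, the log2 ratio of Col2a1 was 0.00 and that of Ibsp 0.14, and the chondrogenic median was -0.75. Of 11 measured tendon and ligament genes 1 was higher, Kera, and 8 lower (median -2.24, or -2.18 with genes at 0 set to 3 counts). The tendon factor Scx had 1 UMI in cluster 12 (0.573 CPM against 7.65 CPM, a ratio of 0.0749 with an interval of 0.00189 to 0.421). Tnmd, a tendon membrane protein, also had 1 UMI (0.573 against 9.16 CPM). Both were chosen after their values were seen. Scx was just as low in cluster 0, at 0.671 CPM.

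Distal patterning factors were more often lower than higher. Of 26 measured genes of distal and mandibular patterning 6 were higher and 10 lower (median -0.48, or -0.39 with genes at 0 set to 3 counts). Hand2, a basic helix-loop-helix factor that specifies the distal arch, was at 15.5 CPM in cluster 12, against 70.0, 136 and 183 CPM (lowest, median and highest of the other 9), 8.41-fold lower (5.77 to 12.8). Alx1, a homeobox factor of frontonasal and distal jaw mesenchyme, was at 4.59 CPM, against 11.4, 118 and 248 CPM, 29.8-fold lower (15.1 to 69.1). Both lay below all 9 other clusters, as did 10.6% of all measured genes. After thinning, Hand2 was found in 1.52% of cluster 12 cells (4 cells, 0.416 to 3.85%) and 23.4% of the other cells. Erythroid cells had 0.971% (2 cells, 0.118 to 3.46%). Its summed level was 15.5 CPM in cluster 12 (10.2 to 22.5 CPM) and 1.95 CPM in erythroid cells. These levels are not alike, because erythroid markers made up 883524 CPM of the erythroid total. Without thinning, Hand2 was found in 7.55% of cluster 12 cells, 62.3% of the other cells and 3.38% of erythroid cells. The part of free RNA in the cluster 12 level was not tested. Hand1, a relative of Hand2, had 2 UMIs (1.15 CPM against 27.5 CPM), a ratio of 0.0417 (0.00504 to 0.151).

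The forkhead factors Foxf1 and Foxf2, which respond to hedgehog signals, were also low in cluster 12. They were likewise low in clusters 0, 2, 10 and 14. Foxf1 had 1 UMI in cluster 12 (0.573 CPM), against 0.962, 40.7 and 192 CPM (lowest, median and highest of the other 9), a ratio of 0.0101 (0.000255 to 0.0562). Foxf2 was at 2.29 CPM, against 0.481, 22.6 and 220 CPM. For both, cluster 11 was highest and cluster 2 lowest. Cluster 0 was at 2.91 CPM of Foxf1 and 5.82 CPM of Foxf2, and neither gene was called lower than there. Of 16 measured hedgehog pathway genes 1 was higher and 7 lower (median -0.88). The higher one was Gas1, a hedgehog co-receptor (743 CPM against 306 CPM). Gas1 was at 605 CPM in cluster 0, and its difference from that cluster was not called. The receptor and target Ptch1 and the target Gli1 were among the lower ones.

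Further lists were lower more often than higher. Of 14 measured imprinted growth genes 0 were higher and 8 lower (median -0.77, and -0.77 among G1 cells). Dlk1, a membrane protein of progenitor cells, was at 136 CPM in cluster 12, against 380, 1174 and 2802 CPM (lowest, median and highest of the other 9), 10.0-fold lower (8.82 to 11.4), whereas H19 was at 1024 CPM against 1048 CPM in the others together. Of 14 Notch pathway genes 0 were higher and 6 lower, with the target Hes1 at 33.8 CPM, against 69.5, 139 and 223 CPM. Of 14 retinoic acid pathway genes 1 was higher and 6 lower. Crabp1, which binds retinoic acid in the cytoplasm, was at 86.0 CPM, against 312, 625 and 874 CPM, and Crabp2 at 354 CPM against 266 CPM, a ratio of 1.33. The opioid peptide precursor Penk was at 14.9 CPM, against 35.9, 182 and 334 CPM. S100a6, a calcium-binding protein, was at 26.4 CPM, against 36.9, 84.0 and 604 CPM, and Stmn2, a tubulin-binding protein of neurons, at 10.3 CPM, against 4.40, 11.9 and 633 CPM.

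Smaller counts came from the remaining lists, beside 7.28% higher and 8.33% lower over all measured genes. Of dental papilla and follicle genes 6 were higher and 6 lower of 16, of dermal and loose connective tissue genes 3 and 4 of 15, and of joint and perichondrium genes 3 and 1 of 13. Of pericyte and mural genes 1 was higher (Ebf1) and 3 lower of 10, of smooth muscle and myofibroblast genes 1 and 4 of 11, and of perineurial and meningeal genes 0 and 2 of 9. Of immediate early genes, a class induced by dissociation, 2 were higher and 1 lower of 16, and of glycolysis and hypoxia genes 0 and 3 of 18. The perineurial, immediate early and glycolysis counts differ from the shares over all genes by few genes. They are not read as results about these lists.

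**Figure D3:**
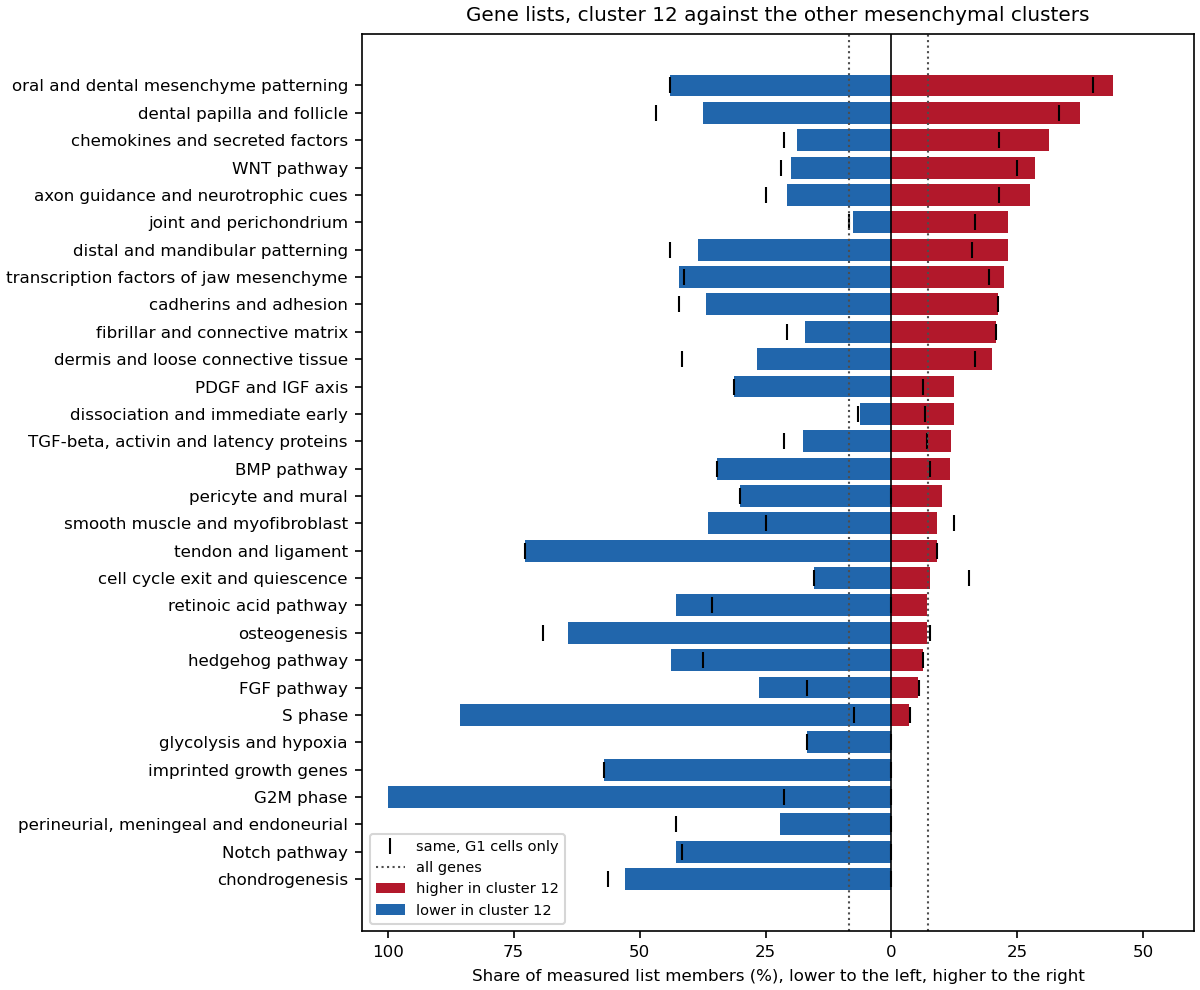
Share of the measured members of each of 30 gene lists that were higher (red, right) or lower (blue, left) in cluster 12 than in the other 9 mesenchymal clusters, in percent. Black ticks give the same among G1 cells and dotted lines the shares over all genes (7.28% higher and 8.33% lower). The oral and dental list reaches furthest to the right, and the blue bars of the S phase and G2M lists shrink to their ticks among G1 cells.

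Few cluster 12 cells were called as S or G2M. By the authors' deposited phase calls, 37 of 265 cluster 12 cells were in S or G2M (14%, 10.0 to 18.7%), against 45.3% of the other mesenchymal cells (43.7 to 47.0%). Cluster 0 had 14.1% and cluster 14 15.3%, and clusters 4 and 10 consisted wholly of S and G2M cells. After thinning, Mki67 or Top2a, 2 genes of dividing cells, was found in 7.22% of cluster 12 cells (4.41 to 11.1%), 26.4% of the other cells and 7.13% of cluster 0 cells. Erythroid cells had 4.37% (2.02 to 8.13%), an interval that overlaps that of cluster 12. However, 44.0% of erythroid cells were themselves called as S or G2M, so they are no measure of free RNA for these 2 genes. Without thinning the shares were 14.3% in cluster 12, 42.6% in the other cells and 14% in erythroid cells. Of 28 S phase genes 1 was higher and 24 lower (median -1.10), and of 30 G2M genes 0 were higher and 30 lower (median -1.49). Among G1 cells the medians were -0.17 and -0.23, with 2 of 27 and 6 of 28 genes lower. Top2a was at 36.7 CPM in cluster 12 and 35.1 CPM in cluster 0, and Hist1h2ap, a histone gene, at 15.5 CPM and 9.84 CPM. Of 13 genes of cell cycle exit 1 was higher and 2 lower, within few genes of the shares over all genes (7.28% and 8.33%).

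The second comparison set cluster 12 against cluster 0, the mesenchymal cluster with the most similar levels (r = 0.959 across 13414 genes of 1 library, which are not independent, against 0.915 to 0.947 for the others). Of 10511 genes, 738 (7.02%) were higher in cluster 12 and 574 (5.46%) lower. Ntrk2 was at 132 CPM in cluster 12 and 5.59 CPM in cluster 0, and Sfrp1, a WNT inhibitor, at 210 CPM and 13.9 CPM. Sp9, a zinc finger factor, was at 155 CPM and 18.3 CPM, although cluster 2 had 191 CPM. Pitx1 was 8.86-fold higher than in cluster 0, and Dlx1 was at 39.6 CPM against 0.447 CPM. The prostaglandin-degrading enzyme Hpgd was at 18.9 CPM in cluster 12 and 153 CPM in cluster 0. Of the 10 genes ranked lowest against all other cells, 5 were also lower than in cluster 0.

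Within cluster 12, some connective tissue genes were detected at lower shares in cells that held another, although many cells held both. The pairs were chosen after their values were seen. Osr1, a relative of Osr2, was detected in 46 of 121 thinned cells with the proteoglycan Lum (38.0%, 29.3 to 47.3%) and in 103 of 142 cells without it (72.5%, 64.4 to 79.7%). Ebf1, a helix-loop-helix factor, was found in 66.4% of cells with Osr1 (58.3 to 74.0%) and 25.4% of cells without it (17.7 to 34.4%). Dcn went with Lum, at 76.9% of cells with Lum (68.3 to 84.0%) and 43.0% of cells without it (34.7 to 51.5%). Median UMIs before thinning were 6234 in cells with Lum and 6543 in cells without it. Pitx1 did not divide along these lines, at 84.3% of cells with Lum (76.6 to 90.3%) and 80.3% of cells without it (72.8 to 86.5%), and the intervals overlap. The 37 cells in S or G2M differed from the 228 G1 cells in the same genes. Osr1 was at 302 CPM in S or G2M cells and 804 CPM in G1 cells, Ebf1 at 247 and 790 CPM, and Sfrp2 at 337 and 1037 CPM. Lum was at 722 CPM in S or G2M cells and 428 CPM in G1 cells, and Pitx1 at 883 and 856 CPM.

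**Figure D4:**
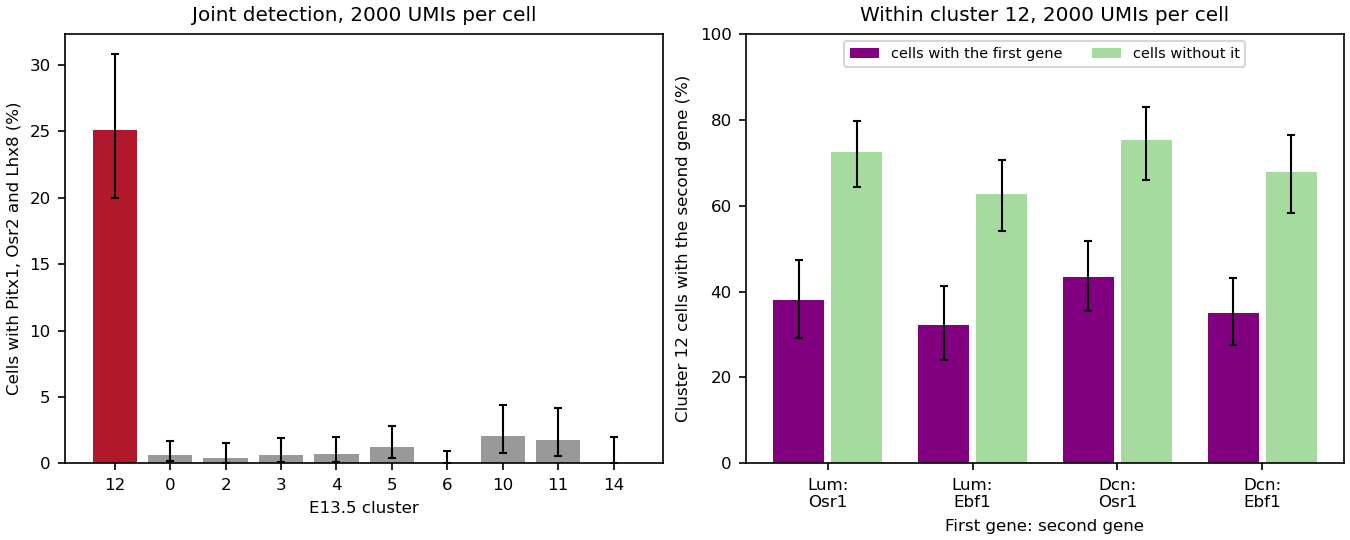
Left, percent of cells with at least 1 UMI each of Pitx1, Osr2 and Lhx8 by E13.5 cluster, and right, percent of cluster 12 cells with Osr1 or Ebf1 among cells with (purple) and without (green) Lum or Dcn. All cells were thinned to 2000 UMIs and bars carry exact 95% intervals of counting error. Cluster 12 reaches 25.1% on the left, against at most 2.05% elsewhere, and the green bars are above the purple ones in all 4 pairs on the right.

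Cells of both sexes were present in cluster 12. Xist, made by the inactive X chromosome, was detected in 22.6% of cluster 12 cells and 31.1% of the other mesenchymal cells, and 27.2% and 24.2% held a Y-linked transcript with no Xist. In cells with Xist, and again in cells with a Y-linked transcript and no Xist, all 14 higher and 10 lower ranked genes kept their call. They had been ranked by large ratios with these cells included, so their calls were likely to hold. Of all 977 higher genes, 427 kept their call in cells with Xist and 434 in the Y-linked cells. Of all 1118 lower genes, 415 and 444 did, with fewer cells in both splits. Cells with Xist and Y-linked cells come from different embryos, yet the number of embryos behind each is not known.

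The third comparison asked where the cluster 12 genes stood 2 days earlier, in the cells of the other library. Cluster 7 of the E11.5 mesenchyme, 409 cells, was chosen from 11 clusters after these levels were seen. Stage cannot be told apart from library or protease concentration, so levels of the stages stand side by side and no difference between stages is drawn from them. Of the 8 transcription factors ranked higher in cluster 12, 6 were at their highest in E11.5 cluster 7, and of the 14 genes ranked higher overall 3 were, against 8.83% of all genes measured at both stages. Osr2 was at 372 CPM there and at most 56.6 CPM in the other 10 clusters, Tbx18 at 167 CPM against at most 9.61 CPM, and Shox2 at 192 CPM against at most 34.5 CPM. Kera was at 27.5 CPM against at most 5.43 CPM. Lhx8 was at 342 CPM against at most 302 CPM, Tbx3 at 124 CPM against at most 108 CPM, and Dlx1 at 56.8 CPM against at most 52.6 CPM, so these 3 were close to a second cluster. Pitx1 was at 348 CPM and was highest in E11.5 cluster 2, at 438 CPM. Hand2 was at 10.0 CPM against at least 36.2 CPM elsewhere, and Dlk1 at 86.8 CPM against at least 90.8 CPM.

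The wider set of genes did not point to 1 E11.5 cluster. Of 878 genes that were higher in cluster 12 and measured at both stages, 129 (14.7%) were also higher in E11.5 cluster 7, against 3.70% of all genes measured at both stages, and they were 28.2% of the 457 higher genes of that cluster. For E11.5 cluster 6 the count was 146 (16.6%, against 5.41% of all), and for cluster 8 it was 85 (9.68%, against 3.33%). The correlation of log2 differences over 9992 genes was 0.31 with cluster 8, 0.30 with cluster 6 and 0.28 with cluster 7, a description across genes that are not independent. Several leading genes of cluster 12 were not highest in E11.5 cluster 7 either. Over the E11.5 clusters Gfra2 reached at most 11.7 CPM, Ntrk2 20.3 CPM, Lmcd1 3.27 CPM, Anxa1 3.15 CPM and Prdm6 4.18 CPM.

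**Figure D5:**
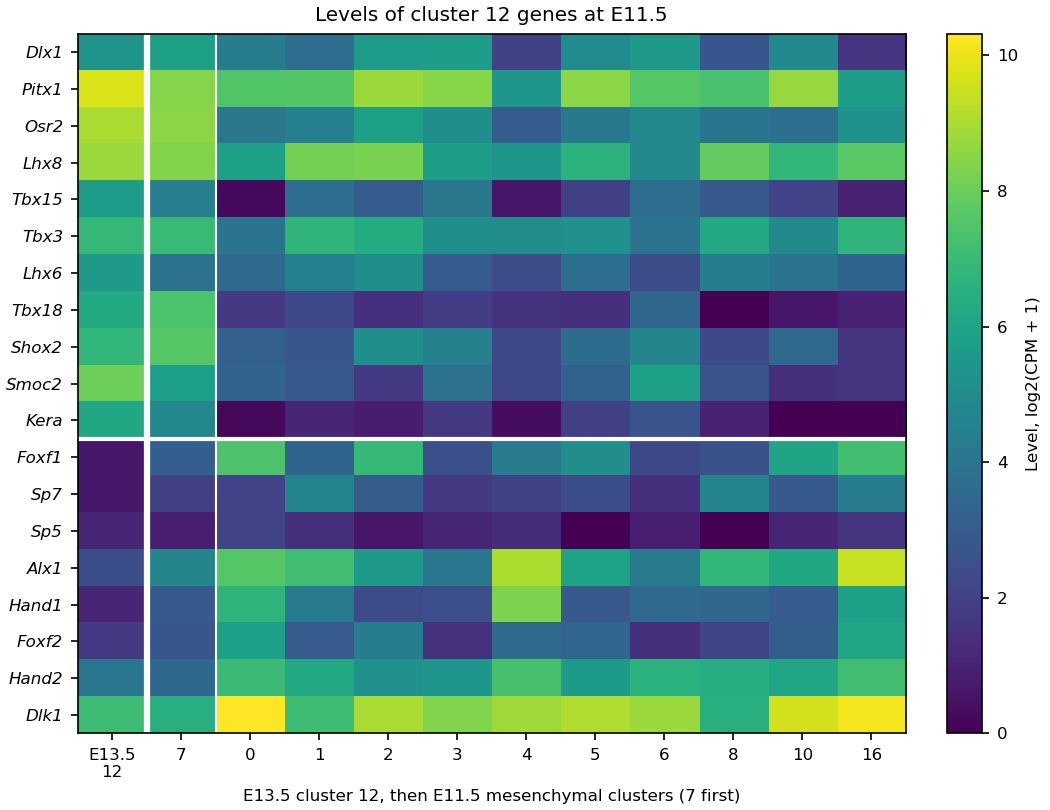
Level (log2 of CPM + 1, colour) of genes higher (upper 11 rows) and lower (lower 8 rows) in E13.5 cluster 12, shown for that cluster in the first column and for the 11 E11.5 mesenchymal clusters, with cluster 7 first. Osr2, Tbx18, Shox2 and Kera stand out in E11.5 cluster 7 (372, 167, 192 and 27.5 CPM), and Hand2 and Dlk1 are lowest there.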

How the data were processed

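The authors deposited raw UMI counts by gene and cell, with per-cell metadata that hold cluster numbers, lineage names, phase calls and the mitochondrial share as a fraction (printed here as a percent). The cell cycle scores behind the phase calls, also deposited by the authors, were not used. Cell Ranger 2.0.0, Seurat 2.3.4 and mm10 are named in the submitters' processing notes, with no role or order. The sources used here give neither the cell filters nor any doublet removal. The members and gene lists were chosen with earlier results of these data known.

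Counts were summed over the cells of each cluster and divided by the cluster total to CPM. The E13.5 library held 67838169 UMIs in 6318 cells and the E11.5 library 49913485 UMIs in 7099 cells. Ratios carry exact conditional binomial intervals and shares exact Clopper-Pearson intervals, and the code was tested on simulated data. No cells were removed. A count of 0 allows a share of up to 3 counts of the total. The genes named were the 14 highest and 10 lowest ratios with an interval wholly beyond 1.5-fold, at least 50 UMIs, at least 100 CPM in the higher group and, where higher, at least 0.2 of the highest level of any cluster. This ranking passed over haemoglobin genes, mitochondrial transcripts, ribosomal proteins, predicted genes and markers of embryo sex. They were joined by the 6 highest and 6 lowest against cluster 0, the 8 highest and 6 lowest listed transcription factors at 10 CPM or more, and up to 2 highest and 2 lowest members of each of 30 gene lists. Genes outside these rules are said to have been chosen after their values were seen, apart from those given only as members of a list or marker list. Measured genes had 20 or more UMIs. Scrublet, run in scanpy 1.11.5 with an expected rate of 0.05, called 5 cluster 12 cells, which were kept. Gene positions were matched by symbol to the GENCODE annotation of GRCm38. Software was pandas 2.3.3, scipy 1.17.1 and numpy 2.4.6 under Python 3.11.15, with matplotlib 3.10.9 for figures. Values of 1 gene that the rules named are not reported here.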

Additional observations from a re-analysis of the deposited data

How the results depend on the processing

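The 977 higher and 1118 lower genes moved past 1.5 times under a few settings. With the unweighted mean of the 9 clusters, which carries no interval, 1682 were higher and 2683 lower. With cells thinned to 2000 UMIs 629 were higher and 621 lower, and with a 2-fold size rule 518 were higher. Among cells with Xist 583 were lower, and among Y-linked cells 578, both with fewer cells. Against cluster 0, cells with Xist gave 434 higher and 307 lower genes and Y-linked cells 435 and 319. The share of cells called as S or G2M was 14%. Detection of Mki67 or Top2a, which is a different measure, was 7.22% in thinned cells and 14.3% without thinning. In cluster 4, wholly S and G2M by the phase calls, this detection was 73.1% in thinned cells. Without cluster 5 the log2 ratio came to 0.00 for Col2a1 and 0.14 for Ibsp. It came to 0.46 for Hist1h2ap among G1 cells and 0.16 for Tagln among cells with Xist. Among Y-linked cells it came to -0.09 for Fosl2 and 0.01 for Pgk1. For Hist1h2ap, Tagln, Fosl2 and Pgk1 the interval of the ratio then included 1, so they lost their call and no turn in direction is shown. The cause was not tested. A median-of-ratios size factor gave 818 higher and 1273 lower genes and shifted log2 ratios by 0.06. Of the list medians under the alternatives, 204 stayed within their limits and 6 moved. Of the single-gene ratios, counted over the same settings, 814 stayed, 144 moved and 6, those named above, were counted as reversed. The 14 highest ranked genes kept their call under every alternative run on that comparison, and so did the 10 lowest ranked, except that 8 of them did among G1 cells and 9 without cluster 5. These genes were ranked by large ratios in the same cells, so their calls were likely to hold. No paired analysis was possible because each stage was 1 library. Depth limits low genes: with 1744506 UMIs in cluster 12, a gene with 1 to 3 UMIs has a wide interval. The settings that left out cells with epithelial UMIs, added cluster 21 or left out clusters 4 and 10, and the split by Xist against cluster 0, were chosen after seeing the data.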
